A study of Mus musculus with 9 samples.

Results

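The circular RNAs examined here were made of several exons and were found repeatedly in mouse liver. A circular RNA entered when it was classed as exonic, held 2 or more exons and had a back-splice junction read in at least 4 of the 9 libraries. Of the 4486 circular RNAs in the table, 4191 were exonic, 3913 of those held several exons, and 289 met the whole rule. These 289 members, 7.39% of the multi-exon circular RNAs, came from 244 host genes. The members were selected on their junction counts, that is on detection in the libraries, so how often they were detected is described here without a test. The 108 members just inside the rule, found in 4 libraries, had 4 to 49 reads in all (median 9). The 201 multi-exon circular RNAs just outside it, found in 3 libraries, had 3 to 44 reads (median 6).

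Liver RNA came from pair-fed mice (PF) on an isocaloric control liquid diet, alcohol-fed mice (AF) on the Lieber-DeCarli diet, and AF mice that were also given MNA by daily intraperitoneal injection at 50 mg/kg (AF+MNA), with 3 libraries in each group. Feeding lasted 5 weeks, and the labelled age was 8 weeks in every group. The labels give the strain as C57BL/6 in PF and AF and as C57BL/7, C57BL/8 and C57BL/9 in the AF+MNA libraries, and they do not spell out MNA. The study's methods describe male C57BL/6J mice for PF and AF, and do not describe the AF+MNA group. By these labels AF differs from PF by diet, AF+MNA differs from AF by the injections and the strain label, and AF+MNA differs from PF by all of these. MNA, its injection and the strain label cannot be told apart.

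Circular RNAs arise when the splicing machinery joins the end of a downstream exon back to the start of an upstream exon of the same transcript. The closed ring has no free ends and is resistant to exonucleases, so such RNAs can be long-lived even where they are made slowly. Long flanking introns whose repeats pair with each other favour this back-splicing, and RNA-binding proteins such as Quaking help or hinder it. The only reads that tell a ring from its linear mRNA are those across the back-splice junction, and such reads are few in libraries made from total RNA after removal of ribosomal RNA.

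The back-splice sequences of leading members are shown first, since they are what the reads were counted on. Each was read 5′ to 3′ from the GENCODE M21 transcripts of the mouse build GRCm38, with the end of the last exon in lower case and the start of the first exon in capitals. All 289 members matched exon boundaries and the exon number of their named transcript in that annotation. The first 6 are highly expressed members, and AU040320 and Slc7a2 are shown because they had low unadjusted p-values, although neither passed after adjustment.
Aass circRNA426, chr6:23107140-23122737, minus strand: tatgttgaagaaatgCTACCACATTTGAAG
Rnf169 circRNA409, chr7:99935162-99955540, minus strand: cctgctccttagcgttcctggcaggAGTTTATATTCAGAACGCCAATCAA
Bckdhb circRNA770, chr9:83988776-84012619, plus strand: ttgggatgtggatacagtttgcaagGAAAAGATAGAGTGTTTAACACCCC
Mlxipl circRNA504, chr5:135121506-135124017, plus strand: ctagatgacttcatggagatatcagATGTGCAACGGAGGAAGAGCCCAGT
Arid1a circRNA563, chr4:133719537-133723051, minus strand: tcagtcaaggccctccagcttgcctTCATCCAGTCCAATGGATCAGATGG
Nr1h4 circRNA171, chr10:89473752-89483524, minus strand: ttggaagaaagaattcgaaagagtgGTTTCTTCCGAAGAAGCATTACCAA
AU040320 circRNA558, chr4:126814256-126816474, plus strand: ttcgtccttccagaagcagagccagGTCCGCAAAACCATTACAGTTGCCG
Slc7a2 circRNA2353, chr8:40898937-40911097, plus strand: tgtgcttattctcagGTTGCTCTCTTCCAC

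The ring of Adk is short enough to show whole. It joins exons 5 and 6 of 11 of the gene for adenosine kinase, is 282 bases long and is all coding sequence. The 15 bases on each side of the back-splice are in capitals, so that the last capitals run on into the first.
Adk circRNA288, chr14:21234833-21240571, plus strand: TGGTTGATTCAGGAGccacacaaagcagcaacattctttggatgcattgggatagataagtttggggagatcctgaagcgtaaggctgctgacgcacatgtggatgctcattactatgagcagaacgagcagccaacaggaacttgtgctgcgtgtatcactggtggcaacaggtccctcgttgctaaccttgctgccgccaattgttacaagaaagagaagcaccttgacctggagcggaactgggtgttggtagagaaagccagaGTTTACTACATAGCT

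The libraries held 57800660 to 82179248 reads, and members took 649 to 1067 junction reads in each. The authors' normalized signal, srpbm, was not defined in the sources used here. Its values equal junction reads scaled to the bases sequenced in the library, so that 1 read was worth 0.0811 to 0.115 srpbm and a count of 0 allowed up to 0.243 to 0.346 srpbm (3 reads), for counting error only. AF replicate 3 and AF+MNA replicate 1 stood apart. Each listed 640 circular RNAs of any kind, the fewest, against 707 to 961 elsewhere, and their transcripts within introns summed to 9433 and 8934 FPKM (fragments scaled to transcript length and library size) against 2477 to 4937. They also had the most unlikely zeros among members. Of 38 members predicted to have at least 5 reads in AF replicate 3 from the other 8 libraries, 13 were at 0, and of 42 in AF+MNA replicate 1, 10 were at 0, against 1 to 4 in the other libraries. All 8 hepatocyte markers were present, and no marker tested from 7 cell type lists passed in any comparison, while no T, B, NK cell or neutrophil marker reached 0.5 FPKM. Some summed marker levels still separated the groups. The 8 sinusoidal endothelial markers summed to 34.4 to 42.3 FPKM in PF, 43.5 to 56.6 in AF and 49.8 to 58.1 in AF+MNA. The 6 cholangiocyte markers summed to 3.29 to 4.36 FPKM in PF, 4.87 to 9.13 in AF and 3.34 to 6.38 in AF+MNA, and the 6 neutrophil markers to 0.17 to 0.84, 0.87 to 2.19 and 0.34 to 0.94. The 8 stellate cell markers summed to 60.8 to 68.3 FPKM in PF, 54.95 to 83.6 in AF and 69.4 to 96.2 in AF+MNA. The 8 T, B and NK cell markers summed to 0.73 to 1.46, 0.6 to 1.22 and 1.27 to 1.65 FPKM, and the pancreas markers, lower in AF than in PF, to 5.47 to 6.91, 2.25 to 4.29 and 3.06 to 7.18. Their part in the results was not tested. In bulk tissue, fewer cells of a type and less RNA per cell cannot be told apart.

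Members held 7152 of the 17959 junction reads, or 39.8%. Most were rare, with a median of 14 reads over 9 libraries. Only 105 members had 20 or more reads, 24 had 50 or more and 11 had 100 or more. In any library 150 to 207 members were seen, and 38.1% of all values were 0. Of the 289 members, 19 were present in every library and 239 had a read in each group. A few were missing from a whole group, with 20 unread in PF, 13 in AF and 17 in AF+MNA.

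Members were typically small rings that began near the front of their genes. The number of exons had a median of 3 and reached 16, and 79 members held the minimum of 2. The summed exon length had a median of 540 bases (82 to 5866). No member contained the first exon of its transcript, and 135 (46.7%) began at exon 2, which carries the first acceptor site and so can take part in a back-splice where exon 1 cannot. Among the 3624 multi-exon circular RNAs outside the rule 29.0% began at exon 2, and among the 278 single-exon circular RNAs 48.7% did. Only 1 member ended at the last exon.

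Coding sequence made up the whole ring in 213 members (73.7%), against 79.6% of the other multi-exon circular RNAs. Another 68 joined coding sequence to untranslated sequence, and 64 of those with a coding host transcript (22.6%, against 14.8%) contained the start codon. Of the 213 all-coding rings, 75 (35.2%) had a length divisible by 3.

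The introns around members were long. The intron before the ring had a median of 14141 bases and the intron after it 11479 bases. In the other multi-exon circular RNAs these medians were 6818 and 5225 bases, and in single-exon circular RNAs 15728 and 12571 bases. Both introns exceeded 10 kb for 43.6% of members, 20.2% of the other multi-exon and 41.4% of the single-exon circular RNAs. Read number within the members did not order these features. Both introns were over 10 kb for 38.4% of the 73 members with under 10 reads and 44.8% of the 105 members with 20 or more, and 46.6% and 45.7% of them began at exon 2. These shares describe the annotation and were not tested, since many rings share a host gene.

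**Figure D1:**
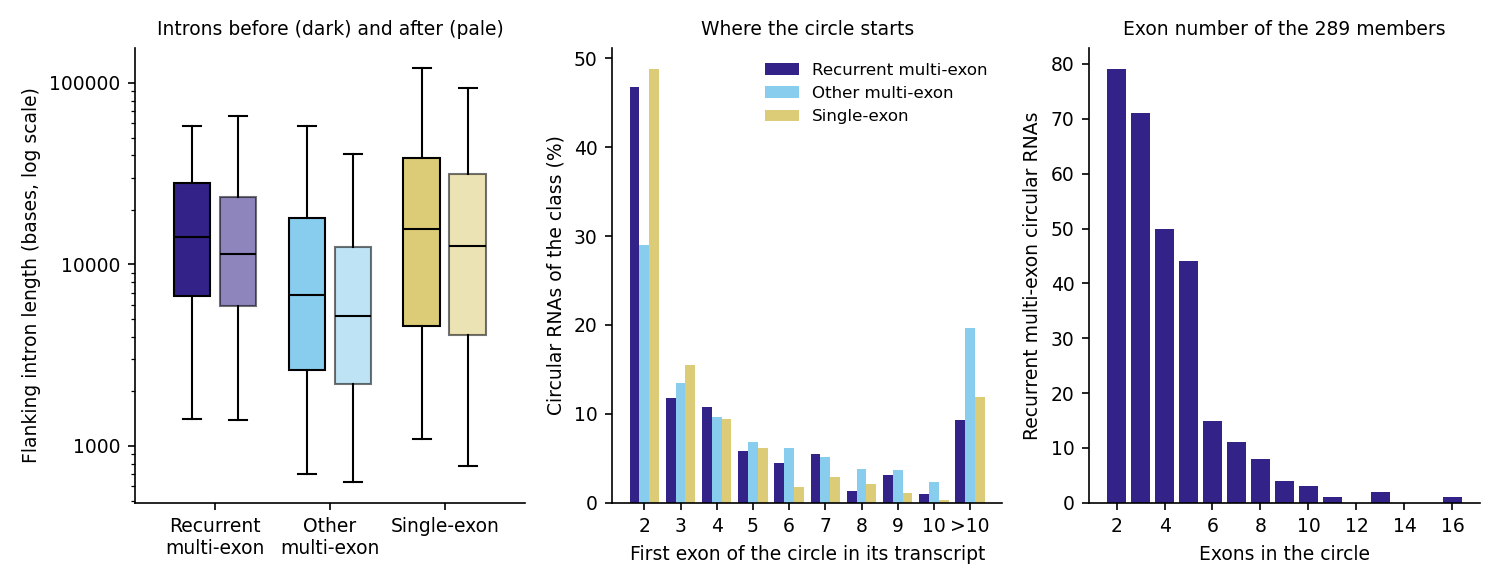
Left, lengths of the introns before and after the ring in bases on a log scale for the 3 classes of exonic circular RNA (line, median; box, quartiles; whiskers, 5th to 95th percentile), with the percent of each class by the first exon of the ring in the middle and the number of exons in the 289 members at the right. Members had longer flanking introns than the other multi-exon rings (median before the ring 14141 against 6818 bases) and began at exon 2 more often (46.7% against 29.0%).

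The most abundant member was circRNA426 of Aass, which encodes an enzyme of lysine breakdown in mitochondria. It joins exons 2 to 11 of 24 in a ring of 1293 bases. Its reads were 17, 20 and 40 in PF, with 36, 41 and 39 in AF, and 47, 40 and 42 in AF+MNA. At this depth its level was 2.68 ± 1.45 srpbm in PF, 3.97 ± 0.55 in AF and 4.04 ± 0.71 in AF+MNA (SD, n = 3), and the PF library with 40 reads lay among the AF libraries. The difference between AF and PF was 0.56 on the log2 scale (SE 0.32, adjusted p = 0.942 by edgeR). Without PF replicate 3 the same difference was 1.10 with an adjusted p of 0.00646, so that 1 library decided it. The host mRNA was also higher in AF, with 22.3, 25.5 and 26.3 FPKM in PF and 39.5, 80.9 and 27.8 in AF, and did not pass the test (adjusted p = 0.449 by limma).

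The next was circRNA409 of Rnf169, a RING finger protein that acts at DNA breaks. It had 42, 27 and 21 reads in PF, with 19, 28 and 33 in AF and 65, 41 and 24 in AF+MNA, so the groups overlapped. Adk circRNA288 had 19, 20 and 21 reads in PF and 24, 14 and 31 in AF and 18, 33 and 10 in AF+MNA. The groups overlapped here too.

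Several leading members came from genes that set liver metabolism. Nr1h4 encodes the bile acid receptor FXR, and circRNA171 joins its exons 3 to 7. That ring had 18, 11 and 13 reads in PF, with 8, 1 and 15 in AF and 26, 7 and 11 in AF+MNA. Mlxipl encodes ChREBP, the glucose-responsive transcription factor, and circRNA504 from its exons 3 to 7 had 16, 15 and 8 reads in PF, with 12, 11 and 15 in AF and 0, 12 and 20 in AF+MNA. Bckdhb encodes a subunit of the dehydrogenase that breaks down branched-chain amino acids, and its circRNA770 had 8 to 14 reads in every PF and AF library and 0, 29 and 16 in AF+MNA. Both zeros were in AF+MNA replicate 1, one of the 2 libraries that stood apart.

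Of the other leading members, circRNA563 joins exons 2 to 4 of Arid1a, a subunit of the BAF chromatin remodelling complex. It was found in all 9 libraries with 4 to 21 reads. Mtus1 circRNA801 had 25, 12 and 19 reads in PF, with 11, 13 and 13 in AF and 15, 16 and 6 in AF+MNA. Alg12 circRNA278, from the gene of a mannosyltransferase of protein glycosylation, had 5 to 23 reads in the 9 libraries. Tmem56 circRNA618, Rmdn2 circRNA952 and Tcf20 circRNA274 each had 1 library at 0 and reached 26, 20 and 24 reads. None of the 12 leading members passed the test in any comparison.

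**Figure D2:**
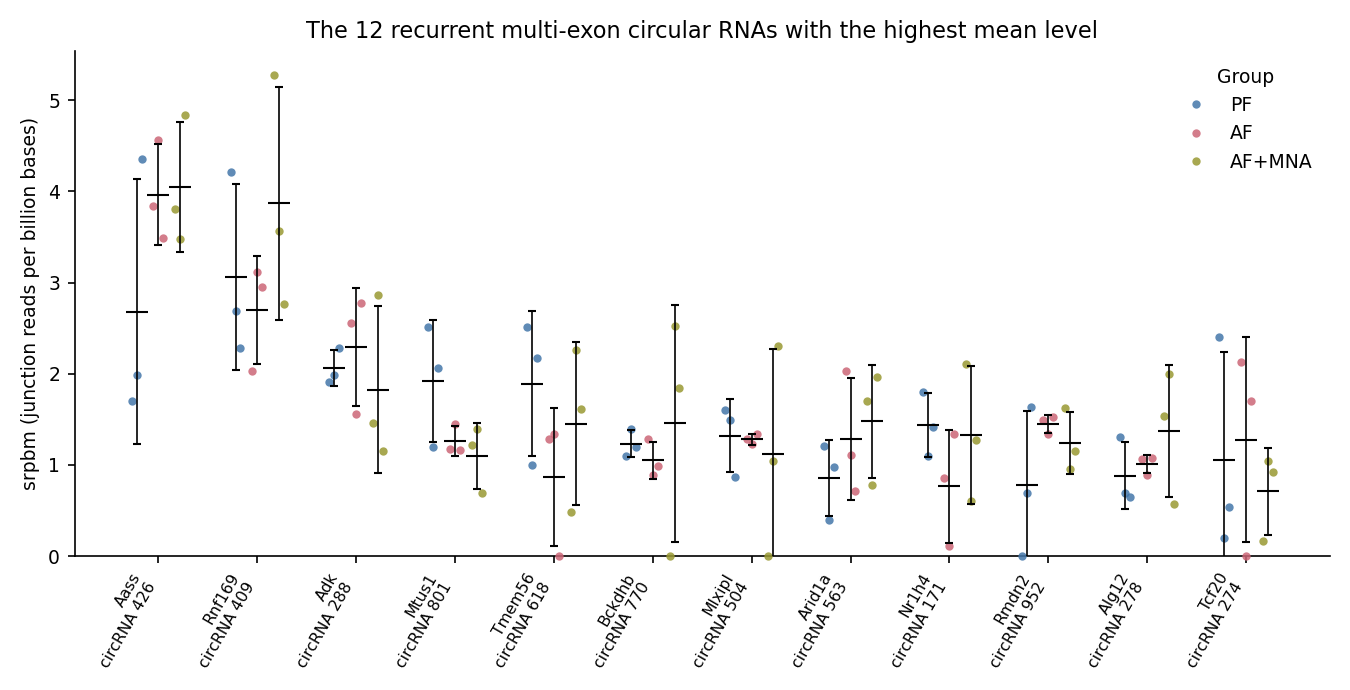
Level in srpbm (vertical axis) of the 12 members with the highest mean over 9 libraries; each point is a library, and bars show the mean and SD of 3 libraries, cut off at 0. Aass circRNA426 and Rnf169 circRNA409 lead with means over all libraries of 3.56 and 3.21 srpbm, the groups overlap for each, and 5 of the 12 have a library at 0.

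The longest rings were not the ones with the most exons. Tcf20 circRNA274 spans 5866 bases in only 2 exons, and the rings of Tacc2 and Ash1l, a histone methyltransferase, hold 5223 and 5075 bases, also in 2 exons. By contrast, 16 exons of Rev1, a polymerase that copies past DNA damage, form a ring of 2431 bases (28 reads in 7 libraries). The rings of 13 exons came from Ubn2 (8 reads) and from Cps1, the first enzyme of the urea cycle (14 reads).

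Most hosts gave 1 member, but 34 of 244 gave more. Of the 62 pairs of members from the same host, 37 shared a start or an end, so that a single splice site took part in several rings. Reads at these junctions are separate counts, but such members are not independent. Dpyd, which encodes the rate-limiting enzyme of pyrimidine breakdown, gave 6 members. They fell into rings ending at exon 8 and rings between exons 9 and 13, on either side of an intron of 85826 bases. The 3 rings that end at exon 8 show the same last bases ahead of different first exons.
Dpyd circRNA611, exons 5 to 8, chr3:118781836-118811267, plus strand: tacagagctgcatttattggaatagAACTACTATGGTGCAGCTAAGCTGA
Dpyd circRNA1195, exons 6 to 8, chr3:118797348-118811267, plus strand: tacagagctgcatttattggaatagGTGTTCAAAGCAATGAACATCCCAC
Dpyd circRNA1196, exons 7 to 8, chr3:118804051-118811267, plus strand: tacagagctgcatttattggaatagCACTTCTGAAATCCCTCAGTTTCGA

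The ring from exon 5 had 2, 0 and 2 reads in PF, with 0, 3 and 7 in AF and 0, 0 and 1 in AF+MNA. The ring from exon 6 had 0, 1 and 0 reads in PF, with 0, 0 and 7 in AF and 9, 4 and 4 in AF+MNA, and every AF+MNA library lay above PF. Its log2 fold change there was 3.51 (SE 1.60, adjusted p = 0.638 by edgeR). It had passed the filter only through AF+MNA, and its 9 reads were in AF+MNA replicate 1, a library that stood apart. The highest AF value of both was the 7 reads of AF replicate 3, a library that stood apart. The ring from exon 7 had 0, 2 and 0 reads, then 0, 0 and 2, then 0, 1 and 2. Host Dpyd mRNA differed by -0.12 on the log2(FPKM + 1) scale between AF+MNA and PF (adjusted p = 0.82 by limma). None of the 6 rings passed the test.

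In Cyp2c70, the P450 that makes muricholic acids in mice, 3 rings share the first exon instead. They begin at exon 4, behind an intron of 12737 bases, and end at exon 6, 7 or 8.
Cyp2c70 circRNA341, exons 4 to 6, chr19:40164352-40167623, minus strand: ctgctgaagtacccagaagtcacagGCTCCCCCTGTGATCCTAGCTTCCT
Cyp2c70 circRNA340, exons 4 to 7, chr19:40160555-40167623, minus strand: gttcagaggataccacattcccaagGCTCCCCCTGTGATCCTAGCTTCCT
Cyp2c70 circRNA339, exons 4 to 8, chr19:40156723-40167623, minus strand: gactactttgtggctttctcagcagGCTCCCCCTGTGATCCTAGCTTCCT

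The ring ending at exon 6 had 1, 6 and 2 reads in PF, with 6, 5 and 7 in AF and none in AF+MNA. The ring ending at exon 7 had 3, 0 and 5 reads in PF, with 2, 2 and 0 in AF and 8, 0 and 1 in AF+MNA, and the ring ending at exon 8 had 1, 0 and 5, then 0, 2 and 0, then 0, 2 and 0. Only the shortest of them was absent from a whole group. Cyp2c genes are close paralogs, so reads may be shared between them and these counts are uncertain.

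Bckdhb gave rings from exons 2 to 6, 2 to 8 and 4 to 8, with 74, 31 and 112 reads in all. Lonp2, a protease of peroxisomes, gave rings from exons 2 to 8, 2 to 11 and 9 to 11, with 15, 61 and 30 reads. The last of these uses the exons that the first leaves out of the middle ring. Gbe1, the glycogen branching enzyme, also gave 3, of which circRNA249 had 2 to 12 reads in each of the 9 libraries and the others 6 and 13 reads in all. Man2a1, Zfp236 and Rbm33 gave 3 members each, with 51, 25 and 23 reads.

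**Figure D3:**
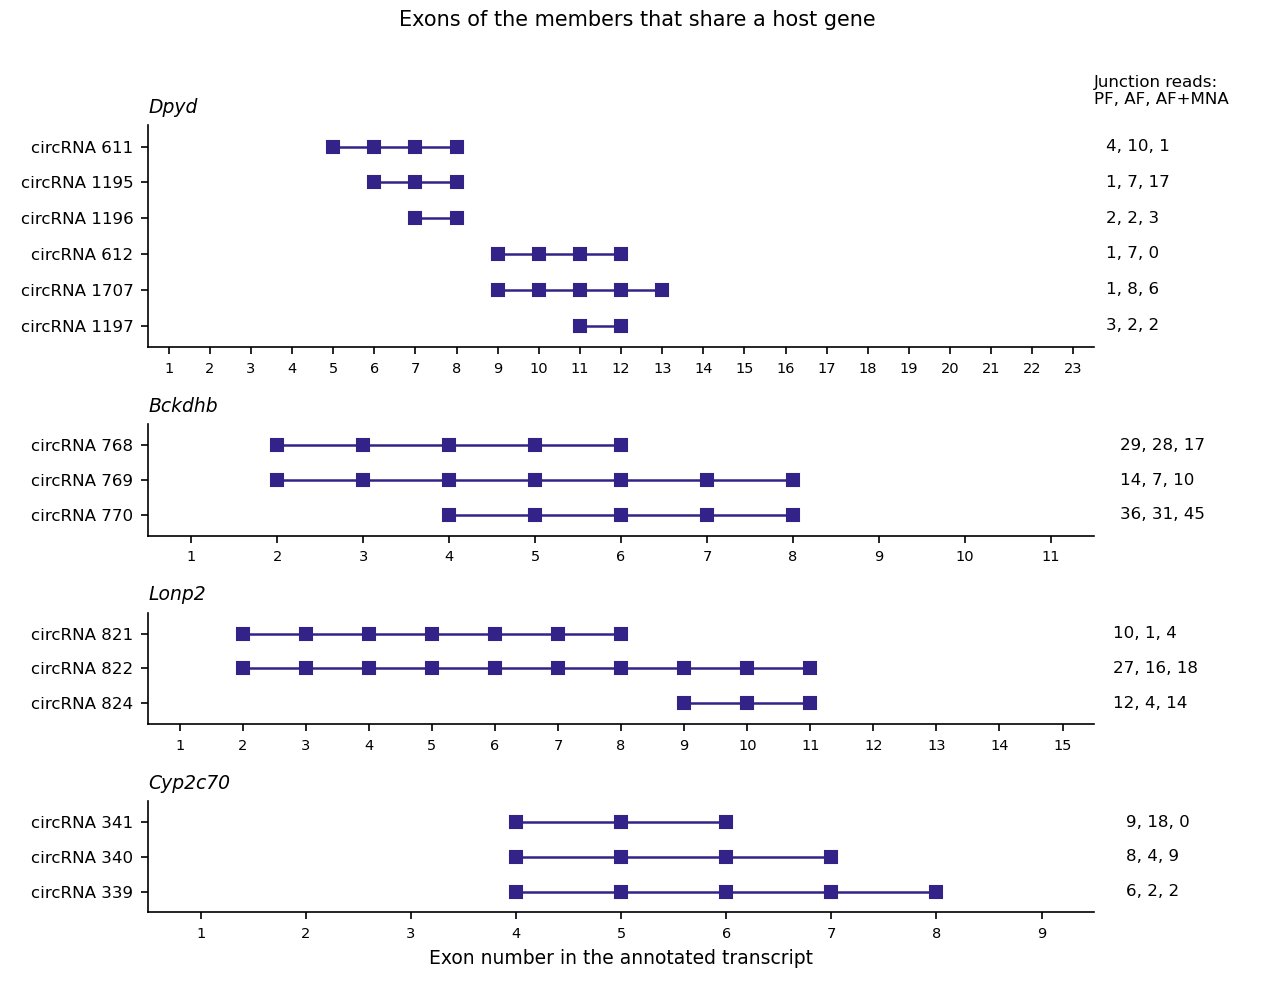
Exons (squares, by exon number in the annotated transcript) of the members from Dpyd, Bckdhb, Lonp2 and Cyp2c70, with the junction reads summed over 3 libraries each of PF, AF and AF+MNA at the right. Rings of the same gene reuse start or end exons, and Cyp2c70 circRNA341 had 9 and 18 reads in PF and AF and 0 in AF+MNA.

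Genes known to give circular RNAs in other tissues were represented. Of 40 such genes, 31 had a mean of at least 0.5 FPKM, 23 gave an exonic circular RNA of any kind and 5 gave a member. Over all 12257 gene entries at that level, 16.6% gave an exonic circular RNA and 1.87% a member. Ankib1 circRNA460, from a ubiquitin ligase gene, had 1, 1 and 2 reads in PF, with 6, 19 and 0 in AF and 6, 1 and 2 in AF+MNA. Homer1 circRNA37, from a synaptic scaffold gene at only 0.804 FPKM in liver, had up to 3 reads in a library and 16 in all. The rings of Pan3 and Zfp609 had 17 and 5 reads.

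Host genes of members covered several lists of liver and regulatory genes, chosen with earlier results of these data known. Among 69 genes of fatty acid, bile acid and lipid handling, 12 (17.4%) gave a member, including Ppara, the fasting regulator of fat oxidation, Abcb11, the bile salt export pump, Mttp, which loads lipoproteins, and Acacb, an acetyl-CoA carboxylase. Their rings were rare, with 6 to 38 reads each. The most abundant, Abcc2 circRNA1023 from the canalicular transporter of conjugated bilirubin, had 0, 2 and 2 reads in PF, with 4, 8 and 7 in AF and 14, 1 and 0 in AF+MNA. Slco1b2 circRNA459, from a hepatic uptake transporter, had 9, 4 and 7 reads in PF, with 6, 1 and 1 in AF and 0, 1 and 3 in AF+MNA.

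Of 60 ubiquitin system genes 7 (11.7%) gave a member and of 63 chromatin regulators 6 (9.52%), among them Ep400, Nsd1 and Ash1l besides Arid1a. Of 63 ethanol and xenobiotic metabolism genes 4 (6.35%) gave a member. In AF against PF, limma called 10 of the 63 xenobiotic genes, 6 higher (0.179% of all entries were called higher) and 4 lower (0.147%), and in AF+MNA against PF 11, 10 higher (0.293%) and 1 lower (0.13%), but none in AF+MNA against AF, where 0.0164% of all entries were called higher and 0.0327% lower. No gene of the lipid, ubiquitin, chromatin, secreted protein or well known host lists passed in any comparison. No member came from the 40 abundant secreted protein genes of the liver such as Alb. Their median was 400 FPKM, and 23 of them gave some exonic circular RNA. Over all gene entries, the share giving a member was 0.396% at 0.5 to 1 FPKM, 2.33% at 2 to 5 FPKM and 3.18% at 50 FPKM or more. A list of 40 genes is too short to set 0 members apart from a share of 3.18%.

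The question of AF against PF was whether alcohol feeding changed these rings. The summed level of members was 79.6 ± 2.93 srpbm in PF, 74.5 ± 5.29 in AF and 80.6 ± 5.86 in AF+MNA (SD, n = 3), and the ranges of the groups overlapped. Their share of all junction reads was 39.4% to 41.8% in PF, 37.1% to 37.9% in AF and 40.7% to 41.9% in AF+MNA, with every AF library below the rest, which is given with no test since it sums over the members. Of the 289 members, 232 had a read in at least 3 of the 6 libraries and were tested with edgeR on the whole table of 335 circular RNAs. None passed an adjusted p of 0.05, and the share called over the whole table was 0.0%. At an unadjusted p under 0.05, 13 members (5.6%) were called, against 5.97% of all tested. Of these 9 were higher in AF (3.28% of all tested were called higher) and 4 lower (2.69%). DESeq2 also called none after adjustment and 7 at an unadjusted p under 0.05. The median log2 fold change was -0.06 over members and -0.05 over all tested.

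The lowest p belonged to circRNA359 of Ttc39c, a tetratricopeptide repeat protein. It joins exons 2 to 6 and had 17, 11 and 9 reads in PF, with 0, 3 and 0 in AF and 0, 0 and 3 in AF+MNA. Every PF library lay above every AF and AF+MNA library. Its zeros in AF replicate 3 and AF+MNA replicate 1, the libraries that stood apart, and in AF+MNA replicate 2 were among those where at least 5 reads were predicted. The log2 fold change was -3.43 in AF (SE 1.10, adjusted p = 0.648 by edgeR) and -3.49 in AF+MNA against PF (SE 1.12, adjusted p = 0.375), and these comparisons share the PF libraries. A separate ring of the same gene, circRNA360 from exons 9 and 10, had 2, 11 and 9 reads in PF, with 0, 0 and 2 in AF and 0, 2 and 2 in AF+MNA. Its log2 fold change in AF was -3.31 (SE 1.44, adjusted p = 0.755 by edgeR). Both rings of this gene had passed the filter only through PF, where they were high, so they do not support each other. Without AF replicate 2, the only AF library with reads of circRNA359, the adjusted p of that ring was 0.0165, and without AF+MNA replicate 3 it was 0.0259 in AF+MNA against PF, each against a group then left with no read. Without AF replicate 3 the log2 fold change in AF was -2.84 (adjusted p = 0.416), and without AF+MNA replicate 1 that in AF+MNA was -2.91 (adjusted p = 0.34). No host value was used for Ttc39c, because the gene table joins its transcript to an entry of another name.

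AU040320 circRNA558 had 9, 2 and 20 reads in PF, with 3, 0 and 0 in AF and 9, 0 and 0 in AF+MNA, and the groups overlapped. Its zeros in AF replicate 3 and AF+MNA replicate 2 were also where at least 5 reads were predicted. Its log2 fold change in AF was -3.24 (SE 1.18, adjusted p = 0.713 by edgeR), while the host mRNA differed by 0.07 on the log2(FPKM + 1) scale (SE 0.17). This ring too had passed the filter only through PF. Its size rested on single libraries. Without PF replicate 3, which held 20 of its 31 PF reads, the log2 fold change was -2.27 (adjusted p = 0.958). Leaving out AF replicate 1, or AF+MNA replicate 1 in the comparison of AF+MNA with PF, left a group with no read, and the fitted values against that 0 (-6.46 relative to the host, adjusted p = 0.0453, and -6.44, adjusted p = 0.0237) are no measure of size.

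Some rings were read in AF and in no PF library. Slc7a2, a transporter of cationic amino acids, gave circRNA2353 with 0, 0 and 0 reads in PF, with 4, 4 and 8 in AF and 9, 1 and 0 in AF+MNA. Cyp2b9 circRNA2096, from a P450 of drug metabolism, had 0, 0 and 0 reads in PF, with 4, 4 and 8 in AF and 18, 2 and 0 in AF+MNA. Each was at least 5.28-fold higher in AF than the 3 reads that a count of 0 over the PF libraries allows, with an adjusted p of 0.713. The highest AF value of both was in AF replicate 3 and the highest AF+MNA value in AF+MNA replicate 1, the libraries that stood apart, whose part in these differences was not tested. These rings had passed the filter only through the libraries in which they were high.

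The comparison of AF+MNA with AF asked what differed in alcohol-fed mice given MNA injections, which carry other strain labels. Of 230 members tested none passed, with 0.0% called of the 320 circular RNAs in the table by edgeR. At an unadjusted p under 0.05, 9 members were called (3.91%, against 4.38% of all tested), 3 higher (1.88% of all) and 6 lower (2.5%), and DESeq2 gave 0 and 2. Without AF replicate 3 and AF+MNA replicate 1, the libraries that stood apart, again none of 157 passed and 3 were called at an unadjusted p under 0.05.

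The lowest p was that of Cyp2c70 circRNA341, whose 6, 5 and 7 AF reads met none in AF+MNA. It was at least 6.61-fold lower in AF+MNA (adjusted p = 0.939 by edgeR), and the host mRNA differed by -0.45 on the log2(FPKM + 1) scale (SE 0.26, adjusted p = 0.964 by limma). Dpyd circRNA612, from exons 9 to 12, had 1, 0 and 0 reads in PF, with 2, 2 and 3 in AF and none in AF+MNA. Traf3 circRNA1386, from a signalling adaptor gene, had 0, 0 and 2 reads, then 1, 2 and 4, then none. In both the whole difference amounted to 7 reads. All of these rings had passed the filter only through AF, where they were high.

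Between AF+MNA and PF, 247 members were tested and none passed (0.0% of 337 called by edgeR). At an unadjusted p under 0.05, 19 members were called (7.69%, against 7.42% of all tested), 7 higher (2.97% of all) and 12 lower (4.45%), and DESeq2 gave 0 and 12. Ep400 circRNA494, from a chromatin remodeller, had 7, 3 and 7 reads in PF, with 2, 3 and 1 in AF and none in AF+MNA. It was at least 6.31-fold lower in AF+MNA than in PF (adjusted p = 0.375 by edgeR), and AF overlapped PF at 3 reads. Pon1, a paraoxonase carried on high-density lipoprotein, gave circRNA2595, which had no read in PF, 0, 2 and 0 reads in AF and 5, 3 and 7 in AF+MNA, at least 4.49-fold higher than PF (adjusted p = 0.638). Bfar circRNA225, from a regulator of cell death, had 1, 8 and 4 reads in PF, with 3, 0 and 0 in AF and none in AF+MNA. The rings of Ep400, Pon1 and Bfar each passed the filter only through the group in which they were high.

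**Figure D4:**
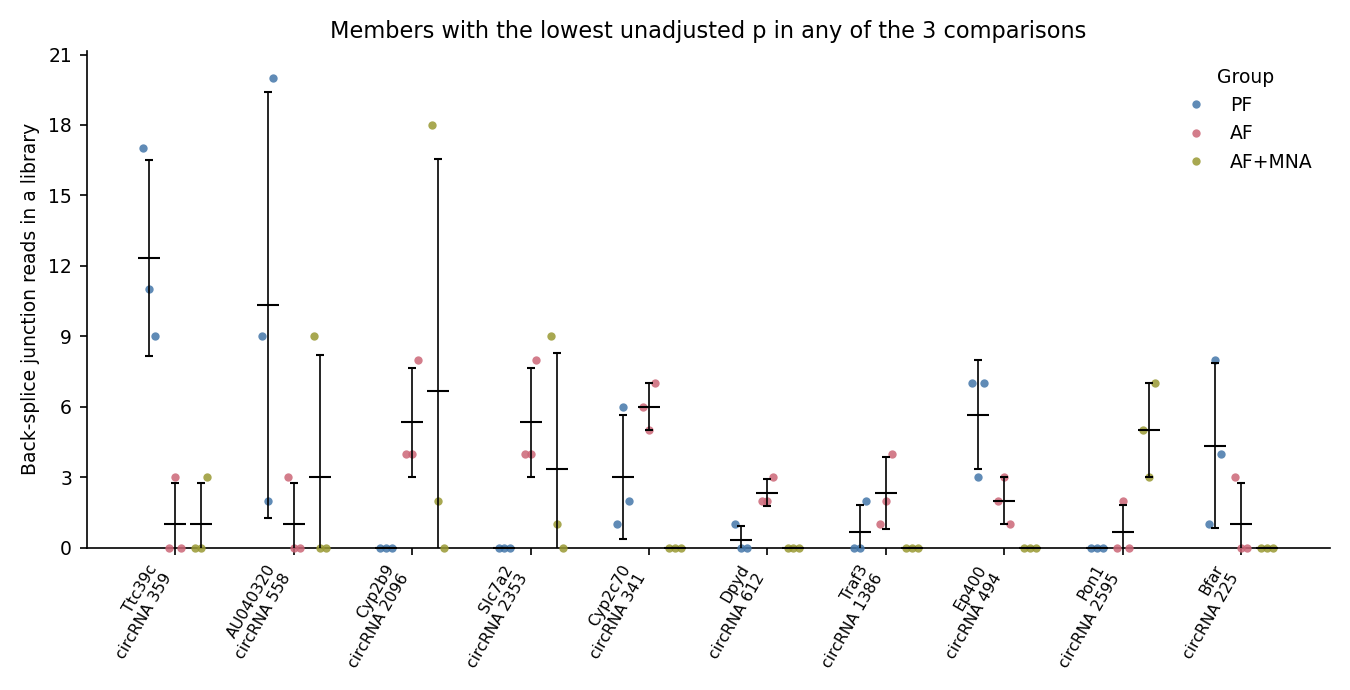
Back-splice junction reads per library (vertical axis, not scaled for depth) of 10 members with the lowest unadjusted p in the 3 comparisons; each point is a library, and bars show the mean and SD of 3 libraries, cut off at 0. Ttc39c circRNA359 had 9 to 17 reads in PF and 0 to 3 elsewhere, and 7 of the 10 never exceeded 9 reads in a library.

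The spread between replicates was wide. The biological coefficient of variation estimated by edgeR was 0.877 for AF against PF, 0.899 for AF+MNA against AF and 0.838 for AF+MNA against PF. Spearman's rho between 2 libraries over the 289 members had a median of 0.301 within groups and 0.207 between groups, a description over members that share depth and low counts. Some members were read strongly or not at all within a group. Named after their values were seen, Asph circRNA516 had 16, 10 and 0 reads in PF, none in AF and 0, 16 and 7 in AF+MNA. Spred2 circRNA2420 had none in PF, 0, 6 and 22 reads in AF and 0, 7 and 10 in AF+MNA. Mkln1 circRNA1087 had 0, 8 and 13, then 6, 1 and 0, then 17, 0 and 1. Each was at 0 in a library of a group in which another library had at least 6 reads.

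Against their host genes, members varied widely. Of the 289, 273 had a host entry with a value, of which 270 reached 0.5 FPKM. Mean srpbm and mean host FPKM were weakly related across these 273 members, with a Spearman's rho of 0.108 and a Pearson's r of 0.117 on log2 values, as a description of members that share libraries and in part hosts. For 98 members with 20 or more reads rho was 0.161. The ratio of srpbm to FPKM had a median of 0.0329 and ran from 0.00013 to 0.525. It compares rings with each other only, since the units differ. Host FPKM is its divisor, and ring level was only weakly related to host level. Low ratios therefore fall mainly on highly expressed hosts and high ratios on weakly expressed ones.

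The highest ratios came from rings of modestly expressed genes. Pms1, a mismatch repair gene, was at 0.576 FPKM and its circRNA1254 at 0.302 srpbm, a ratio of 0.525. Rnf169 circRNA409 followed with 0.504, at 6.36 FPKM of host mRNA. Rmdn2 circRNA952 had 0.391, Tasp1 circRNA675, from a protease gene, 0.383, and Mettl9 circRNA413, from a methyltransferase gene, 0.302. Mettl9 circRNA413 was found with 5 to 11 reads in each of the 9 libraries.

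The lowest ratios came from abundant liver enzymes. Cps1 had 1087 FPKM and its circRNA705 14 reads in all, a ratio of 0.00013. Ces1c circRNA827, from a carboxylesterase gene at 655 FPKM, had 0.00032. Cyp2c29 circRNA2071 had 0.00057, Acaa2 circRNA379, from a gene of mitochondrial fat oxidation, 0.00069, and Cyp2c70 circRNA339 0.0008. Cyp2c and Ces1 genes have close paralogs, so both sides of these ratios are uncertain.

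**Figure D5:**
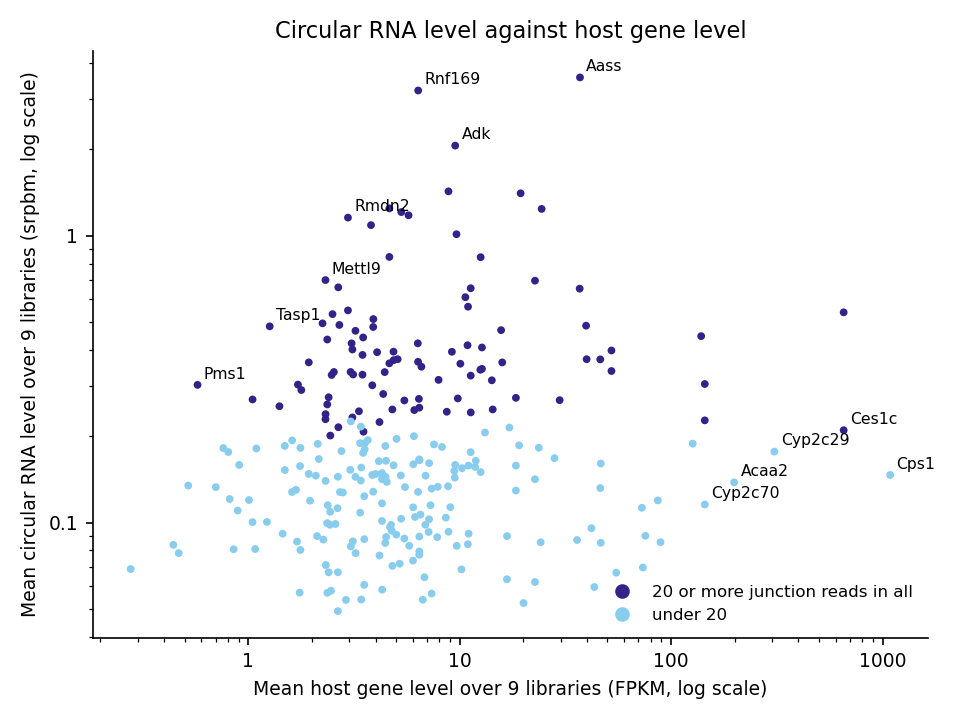
Mean circular RNA level in srpbm against mean host gene level in FPKM, both over 9 libraries and on log scales, for 273 members (dark, 20 or more junction reads in all; pale, fewer). The levels were weakly related (Spearman's rho 0.108), with Pms1 and Rnf169 at the high and Cps1 at the low end of the ratio.

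Of 229 host entries tested with limma in AF against PF 1 passed, against 0.326% of all 12273 entries, and 37 had an unadjusted p under 0.05 (16.2%, against 11.7% of all). The number called over all entries, 40, was 25 without PF replicate 2 or AF replicate 1, 26 without PF replicate 3, 24 with every entry above 0 tested and 86 with all 9 libraries in the fit. The 1 that passed was Cyp2c29, a P450 of xenobiotic metabolism, with 63.0, 32.1 and 53.7 FPKM in PF and 489, 457 and 443 in AF, no overlap. The difference was 3.25 on the log2(FPKM + 1) scale (SE 0.26, adjusted p = 0.0073). Its ring, circRNA2071, had no read in PF, 6, 2 and 2 reads in AF and 0, 5 and 1 in AF+MNA, and was at least 3.3-fold higher in AF (adjusted p = 0.755 by edgeR). That ring had passed the filter only through AF, where it was high, and no direction relative to the host is given for it.

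In AF+MNA against AF 0 of 229 host entries passed, against 0.0491% of all, with 17 at an unadjusted p under 0.05 (7.42%, against 5.21% of all). The 6 entries called over all became 13 without AF replicate 2 and 12 without AF+MNA replicate 3, but 0 with all 9 libraries in the fit and 2 with every entry above 0 or only entries of at least 2 FPKM tested, with no host among them. In AF+MNA against PF 2 passed, against 0.423% of all, and 33 had an unadjusted p under 0.05 (14.4%, against 14.5% of all). The number called over all entries, 52, was 24 without AF+MNA replicate 3, 34 without PF replicate 1 or 3 and 22 with every entry above 0 tested. Those that passed were Cyp2c29 (difference 3.05, SE 0.30, adjusted p = 0.0233 by limma) and Cyp2b9. The Cyp2c29 call was lost without PF replicate 3 or any 1 AF+MNA library (adjusted p = 0.0509 to 0.0745). It was also lost when every entry above 0 was tested and when replicate number entered the fit as a block. Cyp2b9 mRNA had 0.02, 0.01 and 0.15 FPKM in PF, with 6.66, 3.33 and 30.7 FPKM in AF and 29.5, 8.85 and 11.5 in AF+MNA. Its difference was 3.87 (SE 0.41, adjusted p = 0.0291) in AF+MNA and 3.26 (SE 0.68, adjusted p = 0.147) in AF, each against the same PF libraries. With PF near 0 these sizes depend on the pseudocount, and at a pseudocount of 0.1 the first was 6.61 (adjusted p = 0.0167). Host mRNA and ring of Cyp2b9 were both at or near 0 in PF. Cyp2b9 has close paralogs, and its call was lost when any PF library or AF+MNA replicate 3 was left out (adjusted p = 0.0726 to 0.103) or when all 9 libraries or every entry above 0 entered (0.0698 and 0.0709). The replicate block lost the Cyp2b9 call as well.

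Ring levels were also tested relative to the host, with host FPKM as an offset in edgeR. None of 216 members passed in AF against PF (0.0% of all called), none of 219 in AF+MNA against AF (0.0%) and none of 233 in AF+MNA against PF (0.0%). At an unadjusted p under 0.05 the counts were 8, 9 and 12 members (3.7%, 4.11% and 5.15%), against 3.5%, 4.65% and 5.0% of all tested. Across members, the fold changes of ring and host had a Spearman's rho of 0.163, 0.157 and 0.0783 (n = 214, 217 and 232), given as a description with no test.

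Genes that help make circular RNAs, and a list of export and decay factors that also holds other RNA-binding proteins, were read from the same gene table. None of 31 tested biogenesis factors passed in any comparison by limma, with 3, 0 and 4 at an unadjusted p under 0.05 (against 11.7%, 5.21% and 14.5% of all entries). Qk, which encodes Quaking, had 3.17 ± 0.48 FPKM in PF, 2.77 ± 1.41 in AF and 2.61 ± 0.40 in AF+MNA (SD, n = 3). Srsf5, a splicing factor, had 10.8 ± 0.92, 16.1 ± 1.75 and 16.2 ± 2.26 FPKM (adjusted p = 0.22 in AF against PF). Of 21 genes of the export and decay list 1 passed, in AF+MNA against PF (0.423% of all entries, 0.293% higher). It was Elavl1, which encodes the RNA-binding protein HuR, with 2.04 ± 0.07 FPKM in PF, 1.85 ± 0.27 in AF and 4.50 ± 0.31 in AF+MNA. It rose by 0.86 on the log2(FPKM + 1) scale (SE 0.09, adjusted p = 0.029), and the adjusted p was above 0.05 without any 1 PF library and without AF+MNA replicate 2 or 3 (0.088 to 0.103), and also when every entry above 0 was tested (0.0667). With a replicate block the call was lost too, and the highest adjusted p over all alternatives was 0.204 by limma. Eif2ak2, which encodes the double-stranded RNA sensor PKR, had 3.38 ± 0.24, 1.69 ± 0.42 and 2.17 ± 0.56 FPKM (adjusted p = 0.152 in AF against PF).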

How the data were processed

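RNA was depleted of ribosomal RNA and made into strand-specific paired-end libraries. No step that digests linear RNA is described. The submitters' notes name cutadapt 1.9, HISAT2, TopHat, StringTie 1.3.4 and edgeR, and the circular RNA caller and genome build are not given in the sources used here. The authors deposited back-splice junction counts per circular RNA and library, without normalization, and the srpbm signal, which the sources do not define and whose values were the count divided by a constant of each library. At a read length of 150 bases that constant gave whole read totals, used as library sizes. The authors made the gene FPKM values with StringTie, scaled to transcript length and library size. All per-sample columns were matched to a library by the labels.

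Exon structure and sequences came from GENCODE M21. Members matched a host entry by transcript (266) or gene name (7). The remaining 16 had no host value, 14 because their transcript was in an entry of another name, and 8 hosts lay in entries with 2 or more coding genes. Counts were fitted with edgeR 4.0.16 (glmQLFit, glmQLFTest), SE taken from the F statistic, over circular RNAs with a read in at least 3 of the 6 libraries. FPKM was fitted with limma 3.58.1 (trend) as log2(FPKM + 1), for named entries with a known transcript and a mean of at least 0.5 FPKM. Tests were two-sided with Benjamini-Hochberg adjustment over all features tested. DESeq2 1.42.0, other normalizations, filters and left-out libraries were alternatives. R 4.3.3, Python 3.11.15 and pandas 2.3.3 were used. On simulated AF and PF counts, edgeR recovered 26 of 176 changes of 4-fold and 133 of 161 of 16-fold. The simulated dispersion was 0.3, lower than the 0.769 estimated from the real counts, so recovery in the real data is not given by it. On simulated gene values, limma recovered 154 of 182 changes of 4-fold, with 14 false calls. PCR reads carry no molecular identifiers, so floors cover counting error only. The labels do not say that replicates were separate mice, so p-values measure the spread between these libraries.

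Members named are the 12 with the highest mean srpbm, the 4 with the lowest p in each comparison, those of the 5 hosts with the most members, the 3 with the most exons and the 3 longest, the 5 highest and 5 lowest ratios to host FPKM among hosts of at least 0.5 FPKM, and those of well known hosts. Of these, 2 members are not reported here. Others were chosen after their values were seen, or as examples of the gene lists. The members and lists were chosen with earlier results of these data known.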

Additional observations from a re-analysis of the deposited data

How the results depend on the processing

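Counts of members past an adjusted p of 0.05 stayed at 0 for circular RNAs under DESeq2, 3 other normalizations, 2 other filters and all 9 libraries in the fit. With each library left out in turn they ranged from 0 to 1 in AF against PF, in AF+MNA against PF and, relative to the host, in AF against PF, and stayed at 0 in the other comparisons. The called members were Aass circRNA426 without PF replicate 3, Ttc39c circRNA359 without AF replicate 2 or AF+MNA replicate 3, and AU040320 circRNA558 without AF+MNA replicate 1 and, relative to the host, without AF replicate 1. For host genes in AF+MNA against PF, the count of 2 fell to 0 with every entry above 0 tested, to 1 with all 9 libraries in the fit, and to a range of 0 to 1 with a library left out. Cyp2c29 in AF against PF passed under every alternative (adjusted p 0.00169 to 0.0478 by limma). Of the 12 ring differences and 4 gene differences run under the alternatives, none changed sign. They were picked for low p in these data. Most of the rings had a group with no read, so their sign could not change, and no support is drawn from it. The summed member level in AF+MNA over PF ranged from 0.974 to 1.05 with a library left out, on both sides of 1. The causes were not tested.

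No pairing by replicate number was seen. Correlations of same-numbered deviations lay between -0.08 and 0.07, and those of other pairs between -0.124 and 0.097. With 3 libraries in each group these values cannot exclude a pairing. A replicate block gave 0 called members for circular RNAs in each comparison and 0 host genes in AF+MNA against PF. Over all gene entries the block moved the count called from 40 to 18 in AF against PF, from 6 to 1 in AF+MNA against AF and from 52 to 0 in AF+MNA against PF.

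The summed member level in AF+MNA over PF was 1.01, and 1.12 over the 19 members of all 9 libraries. The Spearman's rho of ring and host level was 0.108, and 0.161 for members with 20 or more reads. Leaving out AF replicate 3 and AF+MNA replicate 1 together was chosen after seeing the data. The median member had 14 reads over 9 libraries, and the biological coefficient of variation was 0.838 to 0.899. The parts of depth and of replicate spread in the lack of calls were not tested.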
